A study of Mus musculus with 2 samples.

Results

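Broad open regions were taken as the peaks of at least 4000 bp in the ATAC-seq peak list of the control library, on chromosomes 1 to 19 and X of the mouse genome mm10. There were 820 such regions among 77421 control peaks on these chromosomes (1.06% of the peaks and 5.10% of the bases in peaks). They were chosen by their width in the control library alone, so their width and control signal are descriptions and not findings. For each, the bases covered by peaks of the cKO library and the number of cKO peaks inside it (any overlap of at least 1 bp) were taken.

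ATAC-seq marks open chromatin by letting the Tn5 transposase cut and tag accessible DNA. The libraries came from cells of the kidney of E18.5 embryos, shortly before birth, that were sorted for tdTomato, a red fluorescent protein, with 50000 cells per reaction. The series describes these cells as the Wnt4 lineage, cells that express or descend from cells that expressed Wnt4, a signal that drives the nephron progenitor to become an epithelial tubule. One library is from WT control kidneys and the other from Brg1cKO/cKO kidneys, a conditional knockout of Brg1 that is called cKO here. The sources used here do not state the Cre line, the Brg1 allele, whether the control cells carried a Cre, or how many embryos were pooled. The label for cell type reads Wnt4-lineage cells for the cKO library and control for the other. With 1 library per genotype no difference could be tested, and all intervals below are exact 95% binomial (Clopper-Pearson) intervals that cover counting error over regions or genes only. Regions of 1 library are not replicates of a genotype. Read counts are not in the peak lists and the depth of each library is therefore unknown, and less signal per cell, fewer cells of a type and fewer reads cannot be told apart.

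Brg1, encoded by Smarca4, is an ATPase of the BAF (SWI/SNF) chromatin remodelling complexes, which slide and evict nucleosomes and keep many enhancers accessible. Most open sites are a nucleosome or a few nucleosomes long. Open stretches of several kilobases are known at genes that are transcribed strongly or in bursts, such as the immediate early genes that respond to a stimulus within minutes, and at clusters of developmental regulators such as the Hox genes.

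The start of a gene lay in many of these regions, and 6 promoters show the sequence just before such a start. Fos and Nr4a1, Junb, Zfp36 and Hspa1b are shown because these rapidly induced genes lay in some of the widest regions, and Lhx1 because its region was broken up in the cKO list. Each line holds the 250 bases before the annotated start, 5′ to 3′ on the strand of the gene, from RefSeq on GRCm38 (the assembly also called mm10). They lie at chr12:85473640-85473889 (Fos, plus strand), chr15:101266596-101266845 (Nr4a1, plus strand), chr8:84978749-84978998 (Junb, minus strand), chr7:28379229-28379478 (Zfp36, minus strand), chr17:34959239-34959488 (Hspa1b, minus strand) and chr11:84525535-84525784 (Lhx1, minus strand). Capitals mark the letters of a GC box (GGGCGG, or CCGCCC on the other strand), a CCAAT box (ATTGG on the other strand), TATAAA, or a CArG box, the motif that serum response factor binds. In Zfp36 a GC box and a CArG box overlap in 1 run of capitals.
Fos: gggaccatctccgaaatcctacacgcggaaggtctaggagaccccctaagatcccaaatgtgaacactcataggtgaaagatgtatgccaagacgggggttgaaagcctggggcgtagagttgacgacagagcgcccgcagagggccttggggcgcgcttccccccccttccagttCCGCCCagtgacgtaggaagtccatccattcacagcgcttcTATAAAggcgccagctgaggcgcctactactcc
Nr4a1: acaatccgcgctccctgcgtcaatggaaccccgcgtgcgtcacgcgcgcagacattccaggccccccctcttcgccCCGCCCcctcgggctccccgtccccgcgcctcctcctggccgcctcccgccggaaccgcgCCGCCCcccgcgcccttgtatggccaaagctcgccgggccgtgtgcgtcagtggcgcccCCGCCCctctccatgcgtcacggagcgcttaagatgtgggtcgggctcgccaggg
Junb: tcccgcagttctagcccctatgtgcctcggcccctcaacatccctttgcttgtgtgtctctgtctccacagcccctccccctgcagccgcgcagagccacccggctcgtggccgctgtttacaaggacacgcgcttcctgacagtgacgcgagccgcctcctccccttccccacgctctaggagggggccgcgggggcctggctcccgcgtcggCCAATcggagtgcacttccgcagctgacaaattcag
Zfp36: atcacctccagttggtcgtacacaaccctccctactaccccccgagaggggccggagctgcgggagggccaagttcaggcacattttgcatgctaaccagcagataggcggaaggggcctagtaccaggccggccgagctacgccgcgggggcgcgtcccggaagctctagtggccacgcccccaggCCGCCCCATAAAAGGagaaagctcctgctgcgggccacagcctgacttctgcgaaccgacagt
Hspa1b: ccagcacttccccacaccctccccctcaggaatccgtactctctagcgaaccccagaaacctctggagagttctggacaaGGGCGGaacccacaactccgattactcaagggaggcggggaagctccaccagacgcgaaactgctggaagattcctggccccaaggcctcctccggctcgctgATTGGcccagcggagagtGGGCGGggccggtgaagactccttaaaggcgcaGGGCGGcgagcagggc
Lhx1: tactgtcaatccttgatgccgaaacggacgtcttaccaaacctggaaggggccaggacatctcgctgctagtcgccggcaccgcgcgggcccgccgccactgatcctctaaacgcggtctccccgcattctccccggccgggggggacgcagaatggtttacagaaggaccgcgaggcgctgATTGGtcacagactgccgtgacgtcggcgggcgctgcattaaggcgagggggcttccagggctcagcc

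Fos, an AP-1 subunit, lay in a control region of 9666 bp, of which 99.9% was covered by 1 cKO peak. The region of Junb, another AP-1 subunit, was 7749 bp, and that of Zfp36, which destabilises mRNAs, was 9590 bp. Both were wholly covered by 1 cKO peak. Hspa1b, an inducible HSP70 chaperone, lay in 10012 bp, of which 98.2% was covered. The Nr4a1 region (a nuclear receptor induced by growth factors) was 14599 bp and 96.1% covered, in 3 cKO peaks. Lhx1, a transcription factor of the renal vesicle, lay in 6077 bp, of which 85.3% was covered, also by 3 cKO peaks. Of these 6 regions, 5 were covered to at least 96.1%, and that of Lhx1 was the lowest.

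The sequence of the promoters in broad regions was GC rich, like that of other promoters in peaks of 3000 to under 4000 bp. Motifs were counted over the 250 bases on both strands, at the 679 tabled starts of 534 protein-coding genes that lay in the regions, and at all 21020 tabled starts. The median GC content, taken like the CpG ratio over 300 bases (250 before the start and 50 from it on), was 65.3% in the regions and 56.7% over all starts. GGGCGG was found at 70.4% of starts in the regions, at 72.0% in peaks of 3000 to under 4000 bp and at 43.0% of all starts. TATAAA was found at 6.77% against 11.7% of all starts, CCAAT at 35.3% against 35.6%, and TGANTCA, the AP-1 site, at 3.24% against 6.18%. TGACGTCA, the CREB site, stood at 2.06% against 1.95%. In peaks of 3000 to under 4000 bp these 4 shares were 5.49%, 33.8%, 2.70% and 2.11%. At starts in no control peak TATAAA was found at 22.9% and TGANTCA at 10.3%, so the shares of all starts are not those of like peaks. The ratio of observed to expected CpG was 0.779 in the regions, 0.803 in peaks of 3000 to under 4000 bp and 0.574 over all starts. A CArG box was found at 15 starts (2.21%), 4 of them neighbouring starts of Egr2. The share was 1.77% in peaks of 3000 to under 4000 bp, 1.84% at starts in no control peak and 1.40% of all starts. Actg1, a cytoplasmic actin, Srf itself and Zfp36 were among the matches, as were Lef1, Kctd15, Igf2, Nr2f6, Cnn2, Mknk2, Myl6 and Trip10. A match is a match of letters and not a measured binding site.

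Almost all of the DNA in the broad regions was also in a peak in the cKO library. All 820 regions were overlapped by a cKO peak, where 25.9% of all control peaks were not. Of the 1563 control peaks of 3000 to under 4000 bp, 1 was not overlapped. These were 93.1% covered together, with a median of 97.6%. Of the 4308853 bp of the broad regions, 4082296 bp were covered (94.7%), and 226557 bp were not. The median region was 98.4% covered, with quartiles of 94.1% and 99.96% and a lowest value of 25.7%. A total of 197 regions were wholly covered (24.0%, interval 21.1 to 27.1%), against 18.1% of all control peaks and 21.8% of those of 3000 to under 4000 bp. At least 90% was covered in 691 regions (84.3%), under 75% in 37 and under 50% in 8 (0.976%, interval 0.422 to 1.91%). Under 50% was covered in 27.8% of all control peaks and in 1.66% of control peaks of 3000 to under 4000 bp. Percent covered rose with peak width in the control list, so the broad regions are read below against the peaks of 3000 to under 4000 bp.

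**Figure D1:**
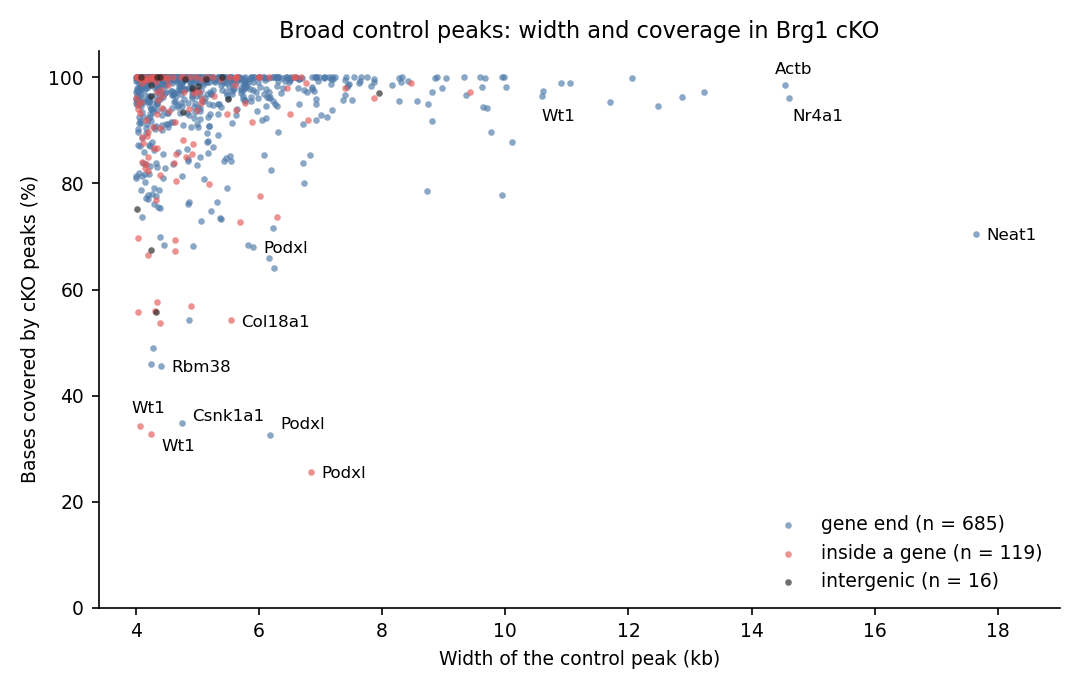
Each point is 1 of the 820 broad control regions, with its width in kb on the x axis and the percent of its bases covered by cKO peaks on the y axis, coloured by place (gene end, inside a gene, intergenic). Most points lie near 100%, and the lowest are regions at Podxl and Wt1 of 4074 to 6850 bp, covered to between 25.7% and 34.4%.

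The regions had a median width of 4766.5 bp, with quartiles of 4310 and 5652 bp and a maximum of 17640 bp. Their −log10 p, as deposited, had a median of 10.6 and ran from 4.48 to 20.1, against a median of 5.71 over all control peaks. In 630 regions (76.8%) the widest overlapping cKO peak was itself at least 4000 bp, and in 190 it was narrower. Of 610 regions where 1 control peak met 1 cKO peak and no other, the ratio of the cKO width to the control width had a median of 0.998, with quartiles of 0.961 and 1.03. The cKO peak was the wider in 287 of these pairs, the narrower in 320 and of the same width in 3. In 5 pairs the cKO peak had less than 50% of the control width.

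A larger share of broad regions than of narrower peaks held several cKO peaks, but the gaps between these pieces were mostly short. A single cKO peak lay in 667 regions, 2 in 132 and 3 in 21. The 153 regions with at least 2 made up 18.7% (interval 16.0 to 21.5%), where the share was 1.29% of all control peaks and 10.9% of those of 3000 to under 4000 bp. A wider region has more room for pieces: the share was 14.4% of the 480 regions of 4000 to under 5000 bp, 19.3% of the 181 of 5000 to under 6000 bp, 24.8% of the 117 of 6000 to under 8000 bp and 47.6% of the 42 of 8000 bp or more. The 174 gaps between pieces had a median length of 139 bp, with quartiles of 117 and 282.75 bp, a minimum of 101 bp and a maximum of 4193 bp. There were 147 gaps under 500 bp and 13 over 1000 bp. Gaps between pieces held 58760 of the uncovered bases (25.9%), and the edges of the regions held the other 167797 (74.1%). With cKO peaks closer than 500 bp joined, 3.29% of the regions held at least 2.

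The 21 regions with 3 pieces had a median coverage of 89.8%, with quartiles of 84.9% and 94.7% and a lowest value of 54.2%, at Col18a1. The 10 widest of them, in order of width, were those of Nr4a1, of Malat1, a nuclear long non-coding RNA, of Nfkbie with Slc35b2 and Hsp90ab1, of Pkdcc, Wt1 and Ski, of Irs2, an adaptor of the insulin receptor, and of Cacna1g, Zfp532 and Oaz1. The coverage of these 10 ran from 87.9% at Ski, a repressor of SMAD signalling, to 97.5% at Pkdcc, a secreted kinase. In the Nr4a1 region the cKO pieces were 3158, 5677 and 5228 bp wide.

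The same count in the other direction gave values of the same order. The cKO list held 851 peaks of at least 4000 bp on these chromosomes. Control peaks covered 94.2% of their bases, with a median of 97.3% per peak. At least 2 control peaks lay in 203 of them (23.9%, interval 21.0 to 26.9%, against 1.44% of all cKO peaks), and 222 met no control peak of 4000 bp or more. Under 50% was covered in 3 (0.353%, against 6.84% of all cKO peaks). The 236 gaps between control pieces had a median of 153 bp and a maximum of 2450 bp, and 191 were under 500 bp. Broken regions therefore occurred in both lists.

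**Figure D2:**
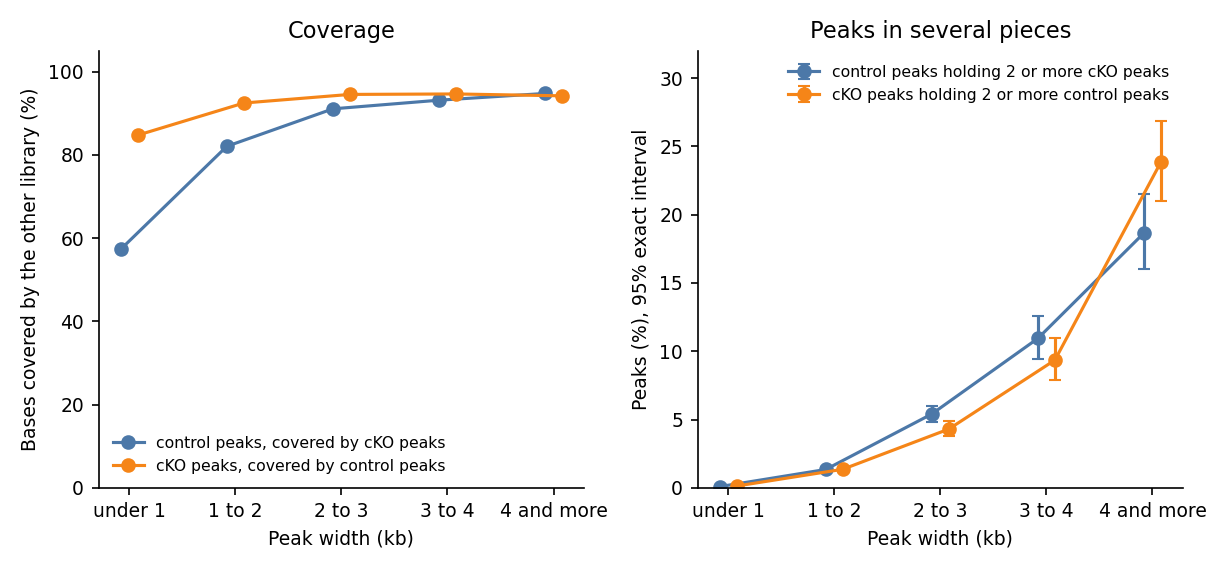
Peaks are grouped by width on the x axis, and points give, for control peaks against the cKO list and for cKO peaks against the control list, the percent of bases covered and the percent of peaks holding at least 2 peaks of the other list. Both quantities rise with width in the control list, coverage from 57.3% in the narrowest class to 94.7% and broken peaks from 0.09% to 18.7%, and at 4000 bp or more the 2 lists give 94.7% and 94.2% coverage.

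Most broad regions lay at the end of a gene. A region was placed there when an outermost annotated end of a gene, on either side, lay in it or within 1000 bp. There were 685 at a gene end (83.5%, interval 80.8 to 86.0%), where 27.5% of all control peaks and 79.0% of those of 3000 to under 4000 bp lay at 1. A further 119 lay inside a gene (14.5%) and 16 were intergenic (1.95%). Of the 685, 633 were at an end of a protein-coding gene and 52 at other genes only.

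Coverage was lower inside genes than at gene ends. At gene ends 95.5% of the bases were covered (median 98.7% per region), inside genes 90.3% (median 96.1%) and in intergenic regions 92.9% (median 98.1%). At least 2 cKO peaks lay in 119 of the 685 regions at gene ends (17.4%, interval 14.6 to 20.4%), in 32 of the 119 inside a gene (26.9%, interval 19.2 to 35.8%) and in 2 of the 16 intergenic regions (12.5%, interval 1.55 to 38.3%). Under 50% was covered in 5 regions at gene ends, in 3 inside genes and in 0 intergenic regions, which allows a share of up to 20.6% there. Control peaks of 3000 to under 4000 bp had the same order, with 94.3% covered at gene ends, 88.2% inside genes and 90.6% between genes. The control signal moved with these classes: the median −log10 p was 10.8 at gene ends, 9.10 inside genes and 8.79 in intergenic regions. Its part in the difference was not tested.

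The 3 widest regions inside a gene were those in Pax2, a transcription factor of the nephron progenitor (9432 bp, 97.3% covered), in Rara, a retinoic acid receptor (8469 bp, 98.9%), and in Bcar1, an adhesion adaptor (7870 bp, 96.1%). Of the intergenic regions the widest lay nearest to Zswim4 (7949 bp, 97.0% covered), followed by those nearest to 1700018B08Rik (5496 bp, 96%) and Gm38821 (5400 bp, 100% covered). The least covered intergenic region, nearest to Smad6, was 4335 bp and 55.7% covered. It is named because it was the lowest, after its value was seen.

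Measured from the most upstream tabled start in each region, the control regions reached further into the gene than before it. This choice of start lengthens the downstream side of genes with several starts, and its part was not tested. A tabled start of a protein-coding gene lay in 495 of the 795 regions on chromosomes with tabled starts (chromosome 18 has none in the table), and 96.2% of the bases of these regions were covered. The table does not hold every gene: the motif counts drew on starts of 17251 of 21631 protein-coding genes. Actb has no tabled start, so its region was counted for Fbxl18 alone, with 13418 bp upstream of that start. In the 454 regions with tabled starts of 1 protein-coding gene, the control peak reached a median of 1757.5 bp upstream and 3121.5 bp downstream. The downstream side was the longer in 328 (72.2%). The start itself lay in a cKO peak in 454 of 454. The upstream side was 96.9% and the downstream side 95.7% covered. At 2000 bp downstream of the start 85.0% of the regions were in the control peak and 81.5% in an overlapping cKO peak. At 2000 bp upstream these shares were 41.2% and 42.5%.

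**Figure D3:**
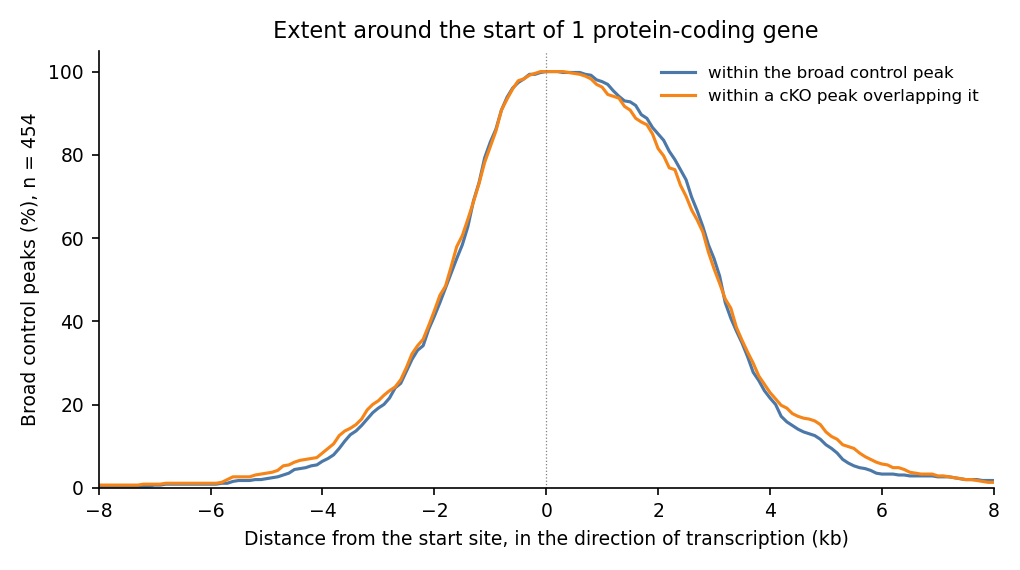
The x axis is the distance in kb from the most upstream tabled start in the region, with the gene to the right. The y axis is the percent of positions in the broad control peak or in a cKO peak overlapping it, over the 454 regions with tabled starts of 1 protein-coding gene. The curves run close together, at 55.1% and 52.6% at 3000 bp downstream and 10.4% and 13.4% at 5000 bp; neighbouring control peaks are not drawn, so the curves are not matched beyond the edge of the control region.

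Immediate early genes, chaperones and long non-coding RNAs of the nucleus were among the widest regions. The widest of all, 17640 bp at Frmd8 and Neat1 (chromosome 19, 5833184 to 5850823), reaches over an end of Neat1, the long non-coding RNA of paraspeckles, and was 70.5% covered in 2 pieces. Next were Nr4a1 and then Actb, the cytoplasmic actin (14539 bp, 98.6% covered), Midn with Cirbp, a cold-inducible RNA-binding protein (13231 bp, 97.2%), Malat1 (12864 bp, 96.3%) and Hsp90ab1, a constitutive HSP90 chaperone (12483 bp, 94.6%). Tnrc18 (12061 bp, 99.9%), Bahcc1 (11698 bp, 95.3%), Fosb (11051 bp, 99.0%), Atp5d with Midn (10898 bp, 98.8%), Pkdcc (10612 bp, 97.5%) and Wt1 (10590 bp, 96.5%) followed. Ski (10115 bp, 87.9%), Hspa1b, Smad7, an inhibitor of TGF-beta signalling (9985 bp, 100%), Hsp90aa1, the inducible HSP90 (9945 bp, 77.7%), and Egr1, an immediate early transcription factor (9939 bp, 100%), came next. Gm15969 inside Casz1 (9763 bp, 89.6%), Tnfaip2 (9711 bp, 94.2%) and Fos complete the 20 widest. At Smad7 the cKO peak ran to 15705 bp and joined 3 control peaks. Only the Neat1 and Hsp90aa1 regions among these 20 were under 80% covered.

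Whole genes lay in some regions. In 55 regions 64 protein-coding genes lay from end to end, among them Actb, Egr1, Fos, Fosb, Jun, Junb, Ier2, Zfp36, Id3 and Hoxb7. These 55 regions were 97.2% covered, and the lowest was 76.4% at Rassf10.

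The regions that the cKO list covered least were at Podxl and Wt1. Podxl encodes podocalyxin, the sialomucin that coats podocyte foot processes, and Wt1 encodes a transcription factor of the nephron progenitor and the podocyte. The lowest coverage of all 820 was in a region inside Podxl (chromosome 6, 31543265 to 31550114). Of its 6850 bp, 25.7% was covered, by cKO peaks of 760 and 999 bp. The region over the lower-numbered end of Podxl, which also lies at an end of Mkln1 (31517286 to 31523473, 6188 bp), was 32.5% covered. That at the other end of Podxl (31559721 to 31565624, 5904 bp) was 68.1% covered, by pieces of 590 and 3430 bp. In Wt1 the 2 regions inside the gene (chromosome 2, 105136240 to 105140484 and 105140667 to 105144740) were 4245 bp and 4074 bp wide and 32.8% and 34.4% covered. The 10590 bp region at the end of Wt1 and Wt1os (105124943 to 105135532) was 96.5% covered, in cKO pieces of 3413, 5142 and 1665 bp with short gaps. The 6 regions at these genes were 55% covered together, and 4 of the 8 regions under 50% were among them. Without these 6 regions, a count added after the values were seen, 0.491% of the other 814 were under 50% covered and 95.1% of the bases were covered.

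The narrower peaks of these loci were also fewer in the cKO list. Within 5000 bp of Podxl there were 14 control peaks over 40302 bp and 7 cKO peaks over 8926 bp, the widest cKO peak being 3430 bp. Within 5000 bp of Wt1 there were 18 control peaks over 42716 bp and 8 cKO peaks over 16389 bp. No cKO peak overlapped 10 of the 14 control peaks of Podxl or 12 of the 18 of Wt1. Over all control peaks 25.9% were not overlapped, and the share was 39.2% under 1000 bp, 7.80% from 1000 to under 2000 bp and 0.749% from 2000 to under 3000 bp. The cKO list held 61102 peaks on these chromosomes, against 77421 in the control list. Most narrower control peaks at both loci had a −log10 p below 5.71, the median of all control peaks. That median was 7.09 from 1000 to under 2000 bp and 10.0 from 2000 to under 3000 bp. The part of signal in these counts was not tested. The cKO peaks of Wt1 lay mainly at the end it shares with Wt1os, and the widest of Podxl at its higher-numbered end.

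**Figure D4:**
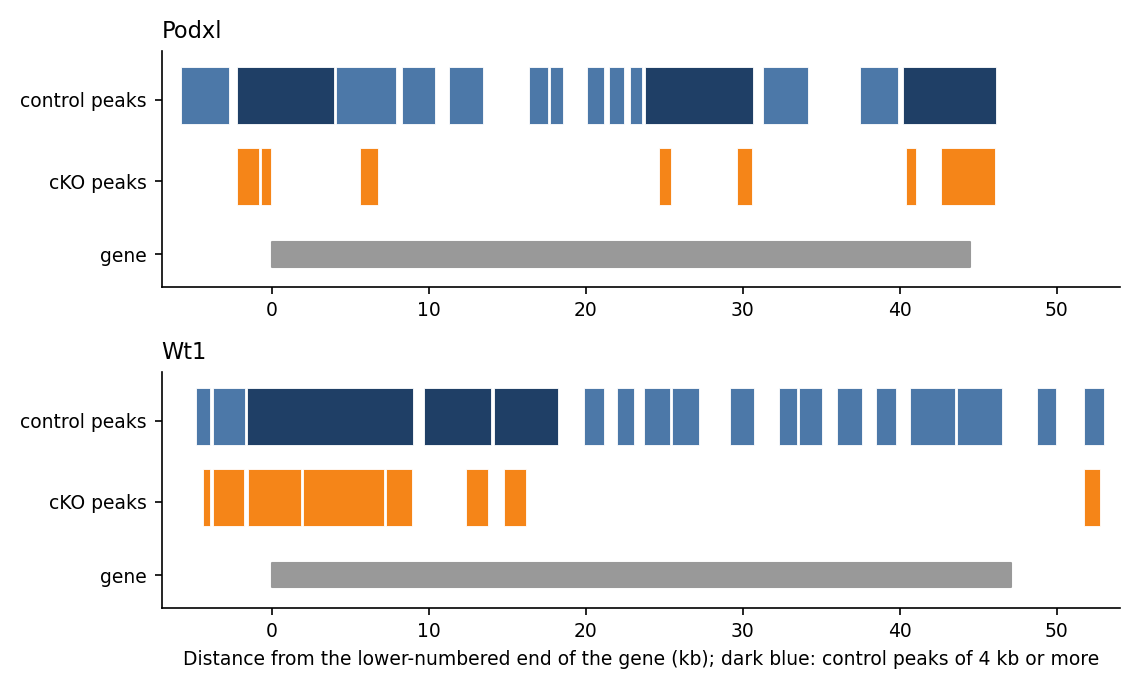
Peaks within 5 kb of Podxl (top) and Wt1 (bottom) are drawn along the distance from the lower-numbered end of the gene in kb, control peaks in blue (those of 4 kb or more in dark blue) and cKO peaks in orange, with the gene in grey. The 14 control peaks of Podxl stand above 7 cKO peaks, and the 18 of Wt1 above 8, of which 5 lie at the left end of the gene.

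The control signal of the 4 least covered Podxl and Wt1 regions was low for broad peaks. The −log10 p of the 2 least covered Podxl regions was at percentile 1.71 and 3.17 among the 820, and that of the 2 regions inside Wt1 at 1.16 and 0.854. The other Podxl region, 68.1% covered, had a −log10 p of 10.6, and the 10590 bp Wt1 region 11.2, at or above the median of all regions. All 8 regions under 50% covered were below the median −log10 p, where 93.3% of the bases were covered, against 96.1% at or above it. The 41 regions with the lowest −log10 p were 85.0% covered together, with a median of 96.7%, and 13 of them were wholly covered. For the 41 with the lowest deposited area per bp these values were 83.9%, 91.5% and 8. Over all 820 regions, which share their libraries, percent covered had a Spearman correlation of 0.058 with −log10 p and of 0.239 with the deposited area per bp. The lowest coverage was thus found among regions of low signal. Over the whole set coverage was almost unrelated to −log10 p and weakly related to area per bp. The part of signal in the result was not tested, and depth cannot be told apart from genotype here.

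The other regions of low coverage were spread over the genome. Csnk1a1, a kinase that primes beta-catenin for degradation (4756 bp), was 34.9% covered, Rbm38, an RNA-binding protein (4411 bp), 45.6%, Tab1, an activator of the kinase TAK1 (4253 bp), 46.0%, and Sema3g, a secreted semaphorin (4285 bp), 48.9%. Ppp2cb, a catalytic subunit of the phosphatase PP2A (4396 bp), was 53.6% covered, and Col18a1, the collagen of basement membranes that is cleaved to endostatin (5541 bp), 54.2% in 3 pieces. The 10 regions of lowest coverage held 13.0% of all uncovered bases.

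A few genes had several broad regions. Of the 877 protein-coding genes with a region over them or within 1000 bp, 56 had at least 2 and 11 at least 3. Gse1 had 5, 95.1% covered together. Bcor, a Polycomb-associated corepressor, had 4 (99.9%), and Cxxc5, a regulator of Wnt signalling, also 4 (94.9%). The genes with 3 were Casz1 (86.0%), Podxl (41.1%), Wt1 (68.8%), Hspg2, which encodes perlecan (95.5%), Kdm6b, an H3K27 demethylase (97.3%), Plec (99.7%), Ptbp1 (100%) and Lmx1b, a podocyte transcription factor (93.3%). Coverage was at least 93.3% in 8 of these 11 genes, and lower in Casz1, Wt1 and Podxl.

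Gene lists were compared by the number of genes with a broad region at an end, beside the share over all protein-coding genes. Only the outermost annotated ends of each gene were counted, not alternative starts or regions further inside it. Broad regions named for Synpo, Cbx7, Axin2 and Mafk were among those left out, each with 2 cKO peaks. In the Synpo region (chromosome 18, 60605782 to 60611474) these were 2433 and 1703 bp wide. In that of Cbx7 (chromosome 15, 79949757 to 79953964) they were 1894 and 901 bp wide. A broad control peak lay at an end of 781 of 21631 protein-coding genes (3.61%), and a broad cKO peak at an end of 857 (3.96%). Of these genes 624 had both, 157 a broad peak in the control list alone and 233 in the cKO list alone. The share depends on how many genes have a peak at all, which was 68.4% of protein-coding genes.

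Among immediate early and AP-1 genes, 23 of 34 (67.6%) had a broad control region, and 22 a broad cKO peak. The 23 regions had a median coverage of 99.1% and none was under 91.8%. Ccn1, a matricellular immediate early gene, lay in 9616 bp and was 98.1% covered, and Jun (8321 bp) was wholly covered. Ier3 was the 1 gene with a broad peak in the control list and not in the cKO list, where its widest peak was 3940 bp and covered 93.0% of the region.

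Hox genes, which pattern the body axis, had a broad control region at 21 of 39 (53.8%) and a broad cKO peak at 26. The 21 genes share 17 regions, since neighbouring Hox genes lie in 1 peak. Their median coverage was 98.9% and the lowest 95.4%, at Hoxa13. Hoxb7 and Hoxb8 lay in 1 region of 9355 bp (96.6%), Hoxa11, which acts in the nephron progenitor, in 7818 bp (98.3%), and Hoxa10 in 6900 bp (97.5%). Hoxa3, Hoxb4, Hoxc5, Hoxc8, Hoxc10, Hoxc11 and Hoxd12 had a broad peak at a gene end in the cKO list alone. Hoxb3 and Hoxb5, in a shared region, had 1 in the control list alone. The cKO peak of Hoxd12 (6370 bp) was 94.2% covered by the 6000 bp control region of Hoxd10 and Hoxd11. That control region was broad too, but not within 1000 bp of an end of Hoxd12.

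Nephron progenitor genes had a broad control region at 9 of 20 (45.0%) and a broad cKO peak at 8. Six2, which maintains the progenitor, lay in 7066 bp (chromosome 17, 85686445 to 85693510) and was wholly covered, as was Gdnf, the ligand that draws the ureteric bud (7146 bp). Sall1, a zinc finger factor of the progenitor, lay in 7206 bp and was 99.6% covered, and Wt1 was given above. Early nephron genes also had a broad region at 9 of 20 (45.0%), with 8 in the cKO list. Bmp7, a survival signal of the progenitor, lay in 8168 bp (98.6% covered), Ccnd1, a cyclin, in 6864 bp (97.7%), Dll1, a Notch ligand, in 6645 bp (99.8%) and Pou3f3 in 6267 bp (95%). Lhx1 had the lowest coverage of the 9, at 85.3%. Wnt4 had no broad region: the widest control peak over it or within 1000 bp was 3143 bp, and the widest cKO peak 2813 bp.

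Podocyte genes had a broad control region at 11 of 25 (44.0%) and a broad cKO peak at 8, the largest fall in number among the 20 lists. At a gene end, Podxl, Wt1, Efnb2 and Cldn5 were broad in the control list alone, and Kirrel in the cKO list alone. The Wt1 region still held a cKO peak of 5142 bp, which lay more than 1000 bp from the gene end. The widest cKO peak was 3832 bp in the Efnb2 region and 3211 bp in that of Cldn5. At Kirrel the widest control peak was 3594 bp. At Cldn5, a tight junction gene (4161 bp), 77.2% of the region was covered, and at Efnb2, an ephrin (4140 bp), 92.6%. The Vegfa region, at the gene of the growth factor that podocytes supply to endothelium (7401 bp), was 99.4% covered, that of Foxc1 (6026 bp) 98.1% and that of Tcf21 (4461 bp) 100%. The median over the 12 podocyte regions was 97.3%. The lowest values were at Podxl.

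Tubule transcription factors had a broad region at 8 of 25 (32%) and a broad cKO peak at 8. Nr2f2 (6509 bp) was 99.4% covered, Mecom (4815 bp) and Irx3 (4610 bp) were 100% covered, and Esrrg, an orphan receptor of the distal tubule (4928 bp), was 68.3% covered. Tubule transport genes had none in 25 in either list, which allows a share of up to 13.7%. Interstitial genes had 7 of 27 (25.9%), with 8 in the cKO list. Hic1 (9330 bp, 100% covered), Meis2 (8811 bp, 97.3%), Nr2f1 (7240 bp, 100%) and Nr2f2 were the widest. Ureteric bud and collecting duct genes had 4 of 21 (19%) in both lists: Hoxb7, Wnt11 (5758 bp, 98.5%), Gfra1, the GDNF co-receptor (5107 bp, 100%), and Wnt7b (4121 bp, 100%). This count leaves out Gata2, which had an annotated start further inside the gene in a broad control peak. Genes of signalling feedback had 11 of 25 (44.0%), with 14 in the cKO list. Smad7, Id3, an inhibitor of bHLH factors (7644 bp, 99.4%), Smad6 (7552 bp, 100%) and Id2 (7403 bp, 96.7%) were the widest.

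Among chromatin genes, BAF subunits had a broad region at 5 of 25 (20%) and a broad cKO peak at 5. Annotated starts further inside Arid1a and Smarcd3 also lay in broad control peaks, which the control count leaves out. Smarcc2 lay in 6158 bp (99.9% covered), Arid2 in 5683 bp (99.7%), Smarca2, the ATPase that can take the place of Brg1, in 4763 bp (91.0%; chromosome 19, 26603873 to 26608635) and Arid1b in 4598 bp (99.9%). Smarca4, which encodes Brg1, had no broad region: the widest peak over it or within 1000 bp was 2881 bp in the control list and 2150 bp in the cKO list, and a peak there does not show whether the deleted part was present. Polycomb genes had 4 of 16 (25%) in both lists, among them Kdm2b (5076 bp, 95.5%), Cbx8 (4795 bp, 97.8%) and Pcgf2 (4215 bp, 100%).

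The endothelial, erythroid, neural, smooth muscle, immune, other-organ, housekeeping and ribosomal lists each had 0 to 2 genes with a broad control region. Their intervals include the 3.61% of all protein-coding genes, and with these small lists nothing is read from them. The interval of the interstitial genes given above (7 of 27, 11.1 to 46.3%) lay above 3.61%. So did that of the ureteric bud and collecting duct genes (4 of 21, 5.45 to 41.9%). Endothelial genes had 0 of 20 broad control regions, which allows up to 16.8%, and 2 in the cKO list. Erythroid genes had 0 of 11 (up to 28.5%) and 1 in the cKO list. Neural genes had 0 of 14 (up to 23.2%) and genes of smooth muscle, pericytes and renin cells 0 of 12 (up to 26.5%), with none in the cKO list. Immune genes had 1 of 15, Cd68 (5477 bp, 96.7% covered), whose region it shares with Eif4a1, a translation factor. Regulators of other organs had 1 of 30, Nkx6-1 (4180 bp, 91.2%). Housekeeping genes had 2 of 20 (10.0%), among them Actb, with 4 in the cKO list, and ribosomal proteins 1 of 30, Rpl19 (4643 bp, 95.5%), with 3 in the cKO list. A control peak of any width lay at an end of 20 of the 20 endothelial, 19 of the 20 early nephron, 6 of the 15 immune and 4 of the 11 erythroid genes. The presence of a peak therefore did not by itself separate the labelled lineage from endothelium.

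**Figure D5:**
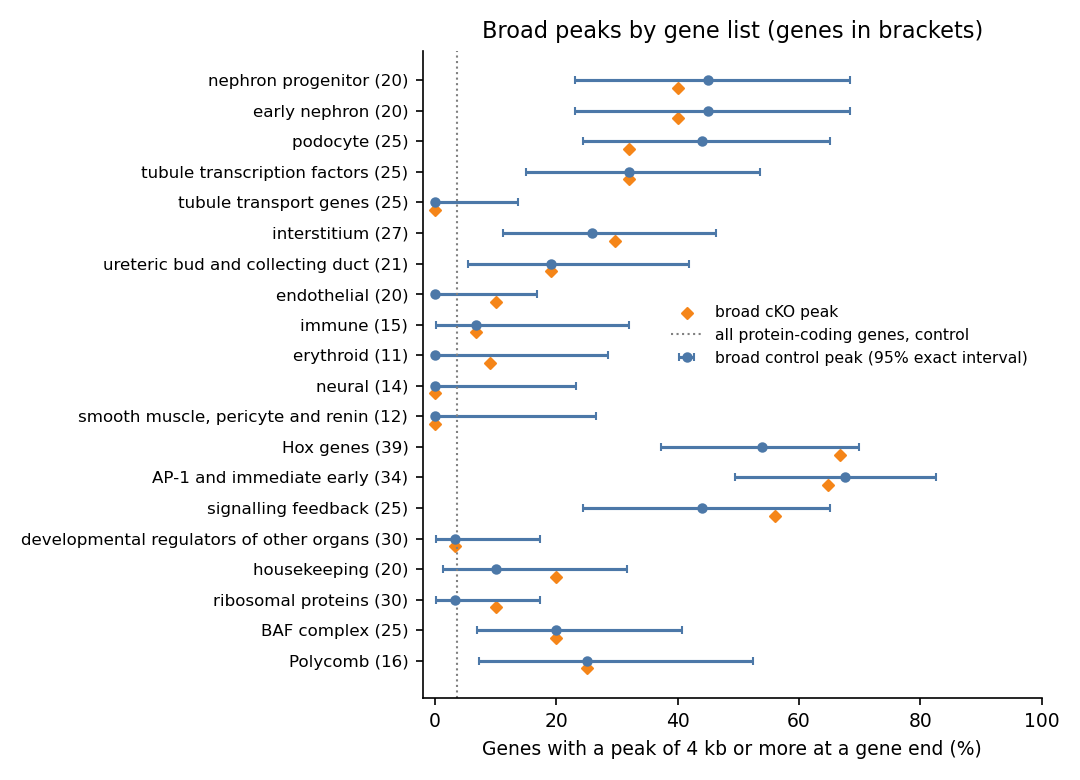
For each gene list (number of genes in brackets) the x axis gives the percent of genes with a peak of at least 4 kb at a gene end, in the control list (blue, with exact 95% intervals) and in the cKO list (orange), and the dotted line marks 3.61% of all protein-coding genes. Immediate early genes (67.6%) and Hox genes (53.8%) stand highest, and the list with the largest fall in number is that of the podocyte, from 11 to 8 of 25 genes.

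Coverage just inside the width threshold overlapped that just outside it. The narrowest regions inside it were at Jup (4000 bp, 100% covered), Gm38621 (4001 bp, 99.3%), 4933440N22Rik (4001 bp, 81.3%), Comp (4002 bp, 95.9%) and 4833439F03Rik (4011 bp, 81.1%). Just outside were regions such as Samd5 (3992 bp, 96.4%), Zc3h4 (3991 bp, 97.2%), Sparc (3990 bp, 96.5%) and Gm30528 (3990 bp, 99.4%).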

How the data were processed

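Peak lists of 1 control and 1 cKO library were used as deposited by the authors. The submitters' processing notes name the tools Trim Galore and SAMtools, the peak caller Genrich and the build mm10, without versions. The deposited columns hold peak position, a score capped at 1000 (782 of the 820 regions are at the cap, so the score was not compared), signal (the area of the peak), and −log10 p and −log10 q. The authors called peaks in each library separately, so signal and −log10 values were compared only within a list. The lowest area is 200.017 in the control list and 200.011 in the cKO list.

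Overlaps, widths and gaps were computed in Python 3.11.15 with pandas 2.3.3 and SciPy 1.17.1, checked on simulated peaks. Genes came from RefSeq on GRCm38.p6. Regions were named by genes with an end in them or within 1000 bp, otherwise by the gene around them, otherwise by the nearest protein-coding gene. The text names the 20 widest regions, the 10 least covered, the 10 with most cKO peaks, 5 on each side of the threshold, the 3 widest intergenic and intragenic regions, up to 4 genes per list, and Smarca4, Smarca2 and Wnt4; other genes named were chosen after their values were seen. Some items that this rule names are not reported here. The regions and the 20 gene lists (440 genes, some in several lists) were chosen with earlier results of these data known.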

Additional observations from a re-analysis of the deposited data

How the results depend on the processing

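No paired analysis was possible because each genotype had 1 library. Of 89 alternative values 66 stayed within the spread or factor allowed and 23 moved. The spread was the exact 95% binomial interval of the main value, taken over the number of regions or genes. For pooled and median coverage, which are not shares of regions, this interval is only a labelling rule and measures no spread. With a width minimum of 3000 bp there were 2383 control regions, of which 13.6% held at least 2 cKO peaks, 80.5% lay at gene ends and 3.27% were intergenic. With 5000 bp there were 340, with 24.7%, 87.6% at gene ends and 10.9% inside genes. The cKO list then held 2284 and 385 broad peaks, of which 14.8% and 31.9% held at least 2 control peaks, and 0 were under 50% covered at 5000 bp. Joining control peaks closer than 500 bp gave 1395 regions. Joining cKO peaks in the same way lowered the share with at least 2 to 3.29% and raised the median coverage to 99.3%. Requiring the gene end inside the peak gave 80.2% at gene ends, 17.4% inside genes and 3.28% of protein-coding genes with a broad region. A distance of 2000 bp gave 86.2% and 12.1%, and protein-coding genes alone gave 77.2% at gene ends and 5.98% intergenic. Leaving out the regions of Podxl and Wt1, an alternative chosen after seeing the data, lowered the share under 50% covered from 0.976% to 0.491% and left the pooled coverage at 95.1%, the median at 98.5% and the share with at least 2 cKO peaks at 18.3%. The lists hold no read counts, so a difference in depth between the libraries could not be measured, and a region absent from a list was not detected at that library's depth.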

Other observations

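Some broad peaks of the cKO list had little in the control list, and they are named here because their values were seen. The peak in Mid1, an E3 ubiquitin ligase gene at the end of the X chromosome (X, 169981570 to 169986210, 4641 bp), met 0 bp of control peaks. That at Gm40371 (4963 bp) was 32.3% covered and that at Rps15, a ribosomal protein gene (4048 bp), 38.1%.

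In the Hoxc cluster the cKO list had broad peaks where the control list had 2 narrower ones each. At Hoxc11 the cKO peak was 5430 bp and 58.2% covered, and the widest control peak was 2546 bp. At Hoxc8 it was 4392 bp and 77.5% covered, at Hoxc5 4170 bp and 89.3%, and at Hoxc10 5960 bp and 97.7%. Among endothelial genes the cKO list had broad peaks at Fli1 (6766 bp, 91.1% covered by 2 control peaks) and Tal1 (4221 bp, 81.9%, also 2), and among erythroid genes at Epor (4039 bp, 87.8%, 2).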
